A study of Mus musculus with 4 samples.

Results

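The 10 genes described here encode proteins of blood clotting and clot breakdown: F2, F5, F10, Fga, Fgb, Fgg, Plg, F3, F8 and F13a1. They were chosen by symbol, with earlier results of the same comparison known, and all 10 were found among the 49997 genes of the files. Of these, 7 encode plasma proteins made mainly by the liver (F2, F5, F10, Fga, Fgb, Fgg and Plg), and 3 are known for other cell sources (F3, F8 and F13a1). The RNA came from cultured AGM, the aorta-gonad-mesonephros region of the mouse embryo, in which the first haematopoietic stem cells arise. The embryos were C57BL/6J, and all explants were cultured for 48 h on a membrane filter at the surface of a haematopoietic medium (MyeloCult) with hydrocortisone. One group was left untreated (n = 2 libraries) and the other was kept with 5 µM CCCP for 48 h (n = 2 libraries), a protonophore that dissipates the proton gradient across the inner mitochondrial membrane. The labels name the cell type as embryonic haematopoietic stem cells, but the extraction protocol speaks of RNA from whole explants, and they give the age as E10.5 and E11.5 in one place and E10.5 in another. They do not say whether libraries of a group came from separate embryos or cultures, so the spread between them may be technical.

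Clotting runs as a cascade of proteases. Tissue factor (F3), a membrane receptor exposed on cells outside the blood, starts it, and activated factor X (F10), with factor V (F5) as its cofactor, cuts prothrombin (F2) into thrombin. Thrombin trims fibrinogen, a hexamer with paired copies of 3 chains (Fga, Fgb and Fgg), into fibrin, which the transglutaminase factor XIII (A chain, F13a1) crosslinks and plasmin (from plasminogen, Plg) dissolves. Hepatocytes secrete fibrinogen, prothrombin, factor X and plasminogen into plasma from fetal life on. Factor VIII (F8), the cofactor of factor IX, comes from endothelial cells, and F13a1 is transcribed in megakaryocytes and macrophages.

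The libraries held 37360968 to 48827826 counted reads, and replicate 1 was the deeper one in each group. Levels are given as CPM, counts rescaled from each library (after TMM scaling) to a common total. The floor of detection, set at 3 counts, equals 0.0599 to 0.0827 CPM. Over all 19837 genes that passed the filter on low counts, edgeR (quasi-likelihood, Benjamini-Hochberg) called 0 genes at an adjusted p-value under 0.05 (0% of genes tested). At an unadjusted p under 0.05 it gave 2899 genes, and DESeq2 called 594. Because the 10 genes were picked with this comparison known, their differences are given below as a description, with no test. With 2 libraries against 2, the smallest two-sided p of an exact permutation test of a single value is 0.333. All 10 passed the filter, which asked for 0.233 unscaled CPM in at least 2 libraries. F2, F10, Fga, Fgb, Fgg and Plg passed only through the untreated libraries, and F5 reached that level in every library.

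The liver-made genes were far lower in the CCCP explants, and F3, F8 and F13a1 were not. The summed level of the 7 liver-made genes was 163 and 99.8 CPM in untreated replicates 1 and 2 and 0.886 and 6.23 CPM in CCCP replicates 1 and 2, a ratio of group means of 36.9. For each of the 7, the CCCP libraries were the lower pair, an order that 24.8% of all genes tested also had. Their median log2 fold change (CCCP over untreated) was -5.44, or -8.04 without CCCP replicate 2 and -4.42 without CCCP replicate 1, against a median of -0.01 over all genes tested. For F3, F8 and F13a1 the median was -0.37, or -0.53 without CCCP replicate 2 and -0.21 without CCCP replicate 1. RNA was taken from whole explants, so fewer cells of a kind and less RNA per cell cannot be told apart in any of these values.

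**Figure D1:**
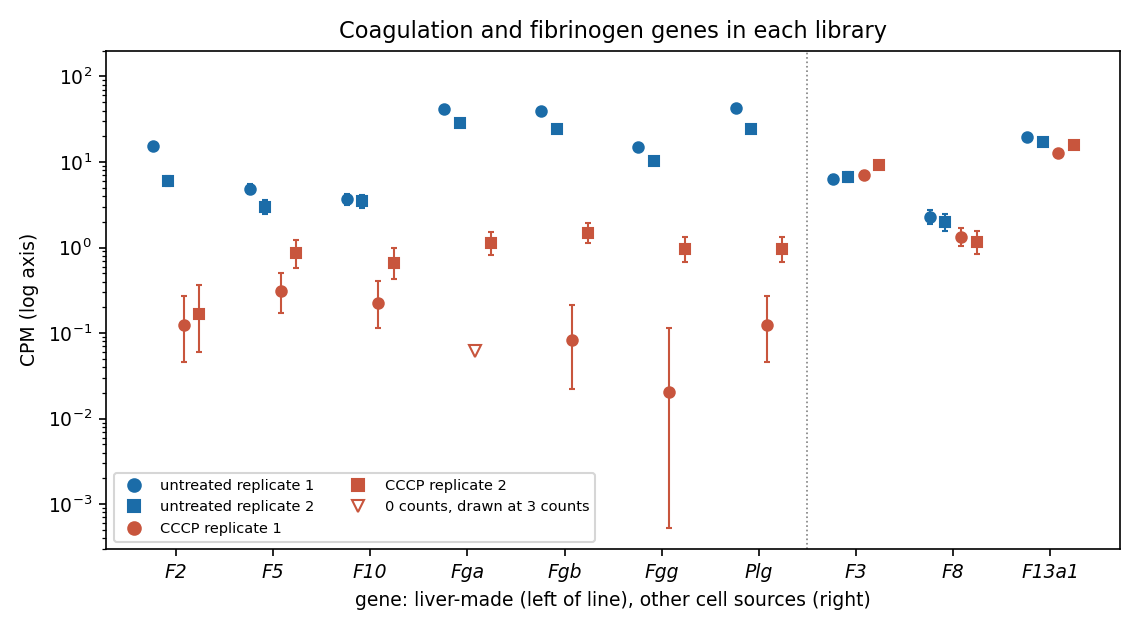
CPM (log axis) of each gene in each library, with exact 95% Poisson intervals of the counts as bars; blue is untreated, red is CCCP, circles are replicate 1 and squares replicate 2, and the open triangle marks the library with 0 Fga counts, drawn at 3 counts. The liver-made genes on the left separate by group and are higher in CCCP replicate 2 than in CCCP replicate 1, least so for F2, while F3, F8 and F13a1 lie between 1.16 and 19.5 CPM in all libraries.

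The fibrinogen chains are encoded side by side on chromosome 3 (mm10). Fgg (83007724 to 83015056) and Fga (83026153 to 83033627) lie on the plus strand and Fgb (83042246 to 83049863) on the minus strand, within 42.1 kb. Their sequences just before the transcription start are shown because the 3 genes were low together in the CCCP libraries and because C/EBP factors, a family active in hepatocytes, are known to act at fibrinogen promoters. The sequences are those of RefSeq (GRCm38.p6, the same assembly as mm10), 150 bases upstream of the start, 5′ to 3′ on the strand of the gene. Capitals mark the C/EBP core TTGCNNAA, which is TTNNGCAA when it lies on the other strand.
Fga, chr3:83026003-83026152, plus strand, between Fgg and Fga: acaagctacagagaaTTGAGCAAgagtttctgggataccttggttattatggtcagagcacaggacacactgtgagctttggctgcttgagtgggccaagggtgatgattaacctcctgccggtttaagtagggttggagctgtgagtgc
Fgb, chr3:83049864-83050013, minus strand, between Fgb and Plrg1: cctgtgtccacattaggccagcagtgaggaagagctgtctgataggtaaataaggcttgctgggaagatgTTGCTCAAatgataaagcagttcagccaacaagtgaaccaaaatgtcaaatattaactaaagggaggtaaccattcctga
Fgg, chr3:83007574-83007723, plus strand, inside the span of the predicted gene Gm30097: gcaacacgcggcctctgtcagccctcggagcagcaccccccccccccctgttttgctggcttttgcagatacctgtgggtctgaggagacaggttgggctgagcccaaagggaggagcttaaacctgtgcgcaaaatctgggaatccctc

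The core begins 135 bases before the start of Fga and 80 bases before that of Fgb. It was searched on both strands in windows of 300 bases (250 before and 50 after the start), and 9 of the 10 genes had an entry. Of these, only Fga and Fgb hold it, and Fgg, F2, F5, F10, F3, F8 and F13a1 do not. Of all 32851 promoter windows searched, 10.8% hold it, against 2 of the 10 windows of these 9 genes. The motif was chosen with the sequences in view, and a match shows letters and not binding. The part of this motif in the low values of the chains was not tested.

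Fga, the chain that carries fibrinopeptide A, gave 2085 and 1065 counts without treatment and 0 and 41 counts with CCCP, or 41.7, 28.5, 0 and 1.13 CPM. The untreated libraries were both high, CCCP replicate 2 was low and CCCP replicate 1 was below detection. The mean was 35.1 ± 9.31 CPM in untreated and 0.565 ± 0.799 CPM in CCCP (SD, n = 2 each), a log2 fold change of -6.07 (standard error 1.05). Against CCCP replicate 1 alone, taken at the floor of 3 counts, the untreated mean was at least 567-fold higher.

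Fgb, the chain that carries fibrinopeptide B, stood at 39.8 and 24.3 CPM without treatment and at 0.0824 and 1.49 CPM with CCCP, the last 2 from 4 and 54 counts. Its log2 fold change was -5.44 (standard error 0.930), and its groups did not overlap. Fgg, whose chain holds binding sites for platelet integrin, stood at 15.02 and 10.3 CPM without treatment and at 0.0206 and 0.965 CPM with CCCP, the last 2 from 1 and 35 counts. Its log2 fold change was -4.77 (standard error 1.03), again without overlap. All 3 chains thus had the same order of libraries, with untreated replicate 1 highest and CCCP replicate 1 lowest.

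The CCCP libraries differed from each other in these chains. Fgb was 18.1 times as high in CCCP replicate 2 as in replicate 1, with an exact 95% interval of 6.66 to 68.7, which covers counting error only. Intervals here take each read as independent, but both mates of a pair were counted, so they are too narrow. With counts halved, the interval for Fgb was 4.54 to 157. For Fga, with 0 counts in replicate 1, the interval had a lower bound of 14.2, and for Fgg it was 46.8 (7.87 to 1902, from 1 count against 35). Gaps between the CCCP libraries larger than those of Fga, Fgb and Fgg on the log2 scale were found in 0.0555%, 0.171% and 0.106% of all genes tested. The untreated libraries differed far less, by ratios of 1.46 for Fga, 1.64 for Fgb and 1.45 for Fgg. With CCCP replicate 2 left out, Fgb stood at a log2 fold change of -8.54 and Fgg at -9.08, and without CCCP replicate 1 they were -4.42 and -3.71. That of Fga was -4.95 without CCCP replicate 1.

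The proportions of the chains were close in the untreated libraries. Of the fibrinogen counts, Fga made up 43.2% and 45.1%, Fgb 41.2% and 38.4% and Fgg 15.6% and 16.4% in untreated replicates 1 and 2, of 4828 and 2359 counts. In CCCP replicate 2, with 130 counts, the shares were 31.5% (exact 95% interval 23.7 to 40.3) for Fga, 41.5% (33.0 to 50.5) for Fgb and 26.9% (19.5 to 35.4) for Fgg. With counts halved, since mates were counted singly, the intervals were 20.6% to 44.3% for Fga and 16.7% to 39.4% for Fgg. As counted, the Fga interval lay below both untreated shares and the Fgg interval above both. Halved, the Fga interval took in the untreated share of 43.2% but not that of 45.1%. The halved Fgg interval began just above the untreated shares of 15.6% and 16.4%. A difference in these shares thus rests on 1 CCCP library and on intervals that cover counting error only. CCCP replicate 1 held 5 fibrinogen counts, too few to give shares.

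Plg, the precursor of the fibrin-dissolving protease plasmin, lies on chromosome 17 (12378609 to 12419384). It gave 2140 and 903 counts without treatment and 6 and 35 counts with CCCP, or 42.7, 24.1, 0.124 and 0.965 CPM. The groups did not overlap, and CCCP replicate 2 was 7.80 times as high as replicate 1 (exact 95% interval 3.25 to 22.7). The means were 33.4 ± 13.2 and 0.544 ± 0.595 CPM (SD, n = 2), with a log2 fold change of -6.03 (standard error 0.757). It was -8.04 without CCCP replicate 2 and -5.11 without CCCP replicate 1.

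F2 encodes prothrombin, the precursor of thrombin, on chromosome 2 (91612397 to 91636457). It gave 762 and 227 counts without treatment and 6 counts in each library with CCCP, or 15.2, 6.07, 0.124 and 0.165 CPM. The mean was 10.6 ± 6.47 CPM in untreated and 0.145 ± 0.0295 CPM in CCCP (SD, n = 2), with a log2 fold change of -6.20 (standard error 0.620). F2 differed from the fibrinogen chains in where the libraries stood. The untreated libraries were 2.51 times apart (exact 95% interval 2.16 to 2.92), a wider gap than for the other 9 genes, while the CCCP libraries were not separated by counting error (ratio 1.34, interval 0.358 to 5.00). Without untreated replicate 1 its log2 fold change was -5.37. The span of F2 overlaps that of Ckap5 on the other strand, a well counted gene, and reads were counted without regard to strand, so its few CCCP counts are uncertain.

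F10, the protease that cuts prothrombin, lies on chromosome 8 (13037308 to 13056676), and F5, its cofactor, on chromosome 1 (164151835 to 164220277). F10 stood at 3.66 and 3.48 CPM without treatment and at 0.227 and 0.662 CPM with CCCP, the last 2 from 11 and 24 counts. F5 stood at 4.85 and 2.99 CPM without treatment and at 0.309 and 0.855 CPM with CCCP, the last 2 from 15 and 31 counts. In both genes the groups did not overlap and CCCP replicate 2 was the higher CCCP library, by ratios whose intervals with halved counts began at 0.987 for F10 and 1.09 for F5. Their log2 fold changes of -3.03 (standard error 0.544) and -2.78 (0.565) were the smallest in size among the liver-made genes. The ratio of group means was 8.03 for F10 and 6.75 for F5, against 25.7 for Fgg and 73.7 for F2. Without CCCP replicate 2 the log2 fold changes were -3.95 and -3.65, and without CCCP replicate 1 they were -2.42 and -2.19.

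F3, F8 and F13a1 stayed within a narrower range. F3, which encodes tissue factor, lies on chromosome 3 (121723537 to 121735052), far from the fibrinogen genes. It stood at 6.31 and 6.68 CPM without treatment and at 7.03 and 9.23 CPM with CCCP, so both CCCP libraries were higher, an order shared by 24% of all genes tested. The log2 fold change was 0.32 (standard error 0.238), and it was 0.12 without CCCP replicate 2 and 0.51 without CCCP replicate 1.

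F8 (chromosome X, 75170344 to 75382738), the cofactor of factor IX, gave 113 and 74 counts without treatment and 65 and 42 counts with CCCP, or 2.26, 1.98, 1.34 and 1.16 CPM. Both CCCP libraries were lower, by a log2 fold change of -0.76 (standard error 0.351). F13a1 (chromosome 13, 36867178 to 37050244), the catalytic chain of factor XIII, stood at 19.5 and 17.3 CPM without treatment and at 12.7 and 15.9 CPM with CCCP. Its groups did not overlap either, and its log2 fold change was -0.37 (standard error 0.190). It was -0.53 without CCCP replicate 2 and -0.21 without CCCP replicate 1. Lower log2 fold changes than those of F8 and F13a1 were found in 9.91% and 23.9% of all genes tested, against 0.65% for F5, the highest of the liver-made genes. The spans of F8 and F13a1 overlap genes on the other strand. A gene that overlaps F8 had up to 2552 counts in a library, so the few counts of F8 are uncertain. Genes that overlap F13a1 had at most 19 counts.

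Levels per length of exon (CPM per kb, with the exon length of the files, which sums all annotated transcripts) put the genes in order. In untreated explants Fgb was highest at 18.8 ± 6.44 CPM per kb, before Plg at 12.1 ± 4.77 and Fga at 10.4 ± 2.76 (SD, n = 2). Fgg followed at 6.01 ± 1.56, then F13a1 at 4.69 ± 0.398, F2 at 4.27 ± 2.59 and F3 at 3.46 ± 0.140. F10 (1.32 ± 0.0471), F5 (0.528 ± 0.177) and F8 (0.170 ± 0.0158) were lowest. The libraries of neighbours in this order overlapped from Fgb to Fga and from Fgg to F3, and not between Fga and Fgg, F3 and F10, F10 and F5, or F5 and F8. In CCCP explants F3 (4.33 ± 0.833 CPM per kb) and F13a1 (3.63 ± 0.573) were highest and overlapped each other. The other 8 genes lay between 0.0579 CPM per kb for F2 and 0.461 for Fgb, and each overlapped its neighbour in the order.

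To set the liver-made genes beside another product of fetal hepatocytes, their counts were divided by those of Afp, alpha-fetoprotein, in the same library. Afp gave 43027 and 21594 counts without treatment and 82 and 1627 counts with CCCP. The 3 fibrinogen chains together had 112 and 109 counts per 1000 Afp counts in untreated, and 61.0 (exact 95% interval 19.3 to 148) and 79.9 (66.3 to 95.6) in CCCP replicates 1 and 2. The chains differed in this ratio. Fga had 48.5 and 49.3 counts per 1000 Afp counts in untreated, 0 (up to 46.0) in CCCP replicate 1 and 25.2 (18.0 to 34.3) in CCCP replicate 2, where the interval with halved counts reached 39.0. Against Afp it was thus lower in CCCP replicate 2, while CCCP replicate 1 had too few counts to place it (up to 94.1 with halved counts). Fgb had 46.3 and 42.0 in untreated and 48.8 (12.98 to 130) and 33.2 (24.8 to 43.5) in CCCP, and Fgg had 17.5 and 17.9 against 12.2 (0.305 to 69.9) and 21.5 (14.9 to 30.0). Plg had 49.7 and 41.8 per 1000 Afp counts in untreated and 73.2 (26.1 to 166) and 21.5 (14.9 to 30.0) in CCCP.

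F5 and F10 departed from this proportion in the other direction. F5 had 5.65 and 5.19 counts per 1000 Afp counts without treatment and 183 (98.0 to 320) and 19.1 (12.9 to 27.2) with CCCP. F10 had 4.25 and 6.02 in untreated and 134 (64.5 to 253) and 14.8 (9.42 to 22.0) in CCCP. For both genes both CCCP libraries lay above both untreated ones. This was not particular to them. Afp, the denominator, had a log2 fold change of -4.96, lower than the median of -2.95 over the 15 hepatic markers listed below. A further hepatic marker read against Afp in the same way also had both CCCP libraries above both untreated ones. Its interval with halved counts in CCCP replicate 2 took in its untreated values. Alb did not have that order, with 438 and 262 in untreated and 97.6 and 248 in CCCP. With halved counts the lower bounds in CCCP replicate 2 were 10.7 for F5 and 7.59 for F10. F2 had 17.7 and 10.5 per 1000 Afp counts in untreated, 73.2 (26.1 to 166) in CCCP replicate 1 and 3.69 (1.35 to 8.04) in CCCP replicate 2, so its CCCP libraries lay on either side of the untreated ones. These intervals cover counting error only, and the values of CCCP replicate 1 rest on its 82 Afp counts.

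**Figure D2:**
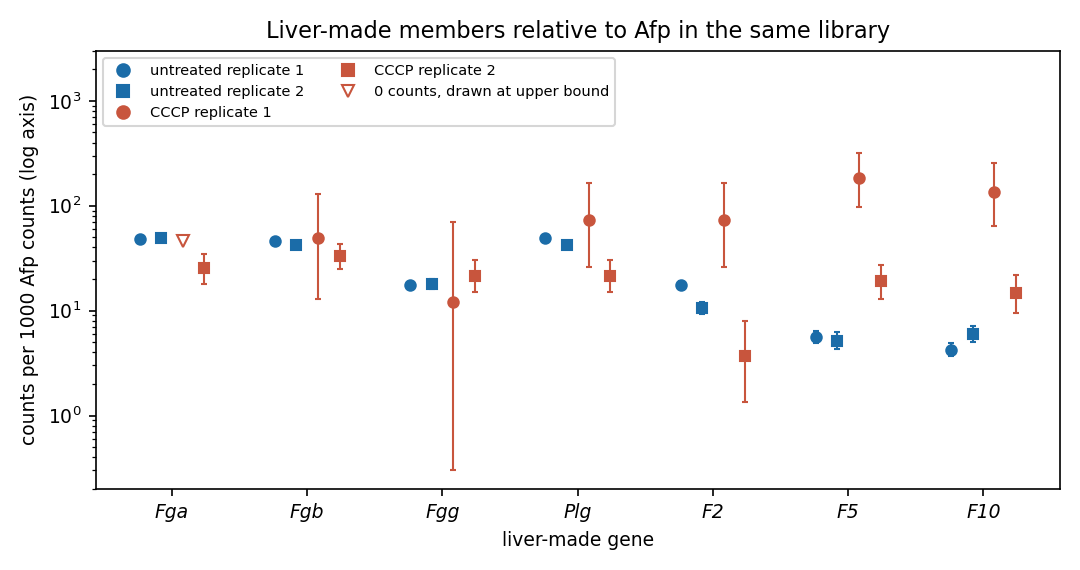
Counts of each liver-made gene per 1000 Afp counts in the same library (log axis), with exact 95% intervals as bars; blue is untreated, red is CCCP, circles are replicate 1 and squares replicate 2, and the open triangle is the upper bound for 0 Fga counts. Fga lies at 48.5 and 49.3 in untreated and 25.2 in CCCP replicate 2, Fgb between 33.2 and 48.8 and Fgg between 12.2 and 21.5 in all libraries, while F5 and F10 lie above their untreated values in both CCCP libraries.

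Genes next to these on the chromosome did not all share the low values. Plrg1, a splicing factor gene that begins 5674 bases past Fgb, stood at 59.0 and 73.5 CPM without treatment and at 76.2 and 81.2 CPM with CCCP, a log2 fold change of 0.25 (standard error 0.143). Dchs2, the next gene tested on that side, stood at 11.2 and 16.5 CPM without treatment and at 6.30 and 4.71 CPM with CCCP, a log2 fold change of -1.33 (standard error 0.279). On chromosome 8, F10 lies between F7 and Proz, which encode the vitamin K-dependent plasma proteins factor VII and protein Z. F7 had 27 and 13 counts in untreated and 8 and 4 in CCCP, and Proz had 176 and 66 against 45 and 26. Their log2 fold changes were -1.66 (standard error 0.685) and -1.68 (0.467), smaller in size than that of F10. Proz shares 551 bases of its span with Pcid2 on the other strand, a gene at 50.9 to 66.5 CPM, so its count is uncertain. Mcf2l, Pcid2, Cul4a and Lamp1, the other tested genes there, lay between -0.02 and 0.39. These neighbours were chosen with their values in view, as all genes that touch a window of 100 kb around each cluster and passed the filter.

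**Figure D3:**
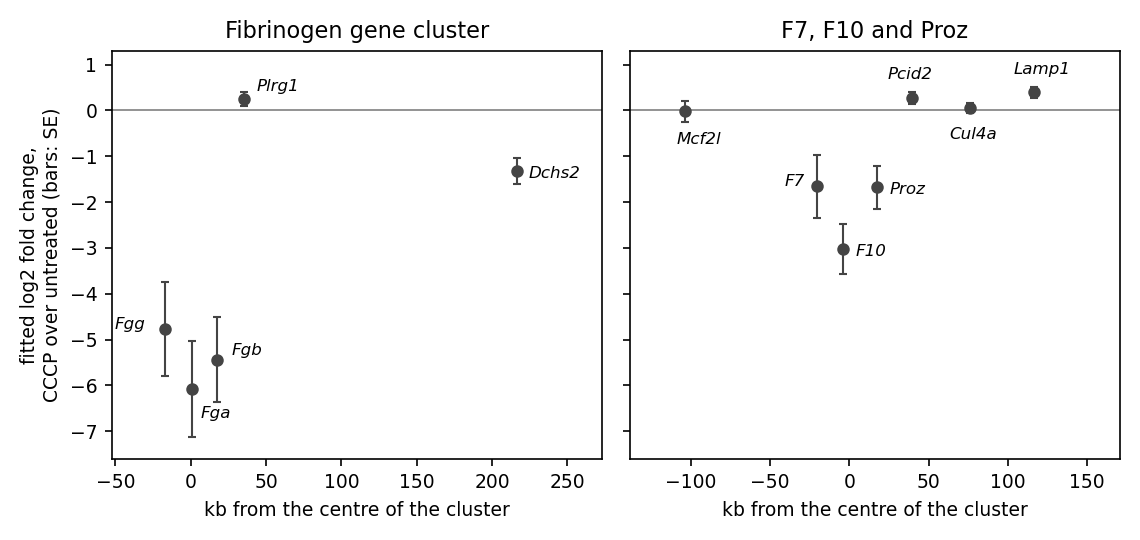
Fitted log2 fold change of each tested gene (y axis, bars are standard errors) against the distance of its midpoint from the centre of the cluster in kb (x axis), for the fibrinogen genes on the left and for F7, F10 and Proz on the right. Fga, Fgb and Fgg lie between -6.07 and -4.77, while Plrg1, the closest gene beyond Fgb, lies at 0.25.

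The rest of the clotting pathway was read from lists of 48 other genes by role, of which 44 passed the filter. None of them was called by edgeR over all genes tested, and the counts by DESeq2 are given with each list (2.7% of all genes tested were called lower and 0.297% higher by DESeq2). Of 8 other clotting factors 6 passed the filter, all 6 with CCCP values as the lower pair, an order of 24.8% of all genes tested. A log2 fold change of -2 or lower was found in 5 of them, a size reached by 1.24% of all genes tested. Their median was -4.80, or -3.98 with genes at 0 counts in both CCCP libraries set to their bound, and DESeq2 called 2 lower. The median was -7.86 without CCCP replicate 2 and -3.69 without CCCP replicate 1. The value of -7.86 rests on genes at 0 counts in the CCCP library left, among them F11, F13b and Kng1. It is a fitted value and no bound. At an unadjusted p under 0.05 in edgeR 5 were lower and none higher, where 9.16% and 5.45% of all genes tested were. All 6 lay below the filter's level of 0.233 unscaled CPM in CCCP replicate 1, so they passed only through the untreated libraries. Lower CCCP values were thus favoured by the filter, and these counts only describe genes chosen with the comparison known.

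F11 and F13b, the second chain of factor XIII, had 0 counts in both CCCP libraries, against 80 and 28 counts and 36 and 26 counts in untreated. With the floor of 3 counts per library, they were at least 16.2-fold and 9.79-fold lower in CCCP. Kng1, the kininogen of the contact pathway, stood at 11.05 and 5.59 CPM without treatment and at 0 and 0.496 CPM with CCCP. F12, the protease that starts that pathway, stood at 5.01 and 3.18 CPM without treatment and at 0.0412 and 0.524 CPM with CCCP. F9 had at most 4 counts in any library, so no difference was detectable at this depth. F11, F13b and F9 are named with their values in view.

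Of 8 listed plasma anticoagulants 6 passed the filter, 6 were lower in both CCCP libraries (24.8% of all genes tested were), and DESeq2 called 4 lower. Their median was -4.50, or -5.44 without CCCP replicate 2 and -3.74 without CCCP replicate 1, and at an unadjusted p under 0.05 in edgeR 5 were lower and none higher. Of the 6, only Pros1 and Proz reached the filter's level in both CCCP libraries. The others passed only through the untreated libraries, so lower CCCP values were favoured by the filter, and these counts are a description. Serpina10, the inhibitor that works with protein Z, stood at 2.90 and 1.82 CPM without treatment and at 0 and 0.110 CPM with CCCP, the last from 4 counts. Pros1, the protein S gene, which is also transcribed outside the liver, stood at 34.4 and 36.7 CPM without treatment and at 31.7 and 33.9 CPM with CCCP, a log2 fold change of -0.11 (standard error 0.127).

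Of 11 fibrinolysis genes, all of which passed the filter, 3 were lower in both CCCP libraries, 2 were above and 6 overlapped. These orders were found in 24.8% (lower) and 24% (above) of all genes tested. The median of the list was 0.09, or -0.06 without CCCP replicate 2. Serpinf2, the plasmin inhibitor of plasma, stood at 30.5 and 21.6 CPM without treatment and at 0.659 and 1.68 CPM with CCCP, with a log2 fold change of -4.51 (standard error 0.460, edgeR adjusted p 0.122). Cpb2, the plasma carboxypeptidase that protects fibrin and is named with its values in view, stood at -4.11. These were the 2 that DESeq2 called lower, and at an unadjusted p under 0.05 edgeR gave the same number. Cpb2, with 6 and 3 counts in the CCCP libraries, passed the filter only through the untreated ones.

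Regulators on cell surfaces and the machinery that processes clotting factors had medians near 0. Among 11 surface and vessel wall regulators 3 were lower in both CCCP libraries, 2 higher and 6 overlapped. Over all genes tested 24.8% were lower and 24% higher in this way. The median of the list was -0.28, or 0.028 without untreated replicate 2. DESeq2 called none of them, and edgeR gave 2 lower and 1 higher at an unadjusted p under 0.05. Thbd, the thrombin receptor thrombomodulin, stood at 8.69 and 9.84 CPM without treatment and at 6.72 and 5.43 CPM with CCCP. Vwf, the carrier of factor VIII in plasma, stood at 38.01 and 38.48 CPM without treatment and at 41.6 and 39.5 CPM with CCCP, and Anxa5, which binds exposed phosphatidylserine, had 94.5 and 91.3 CPM against 116 and 134 CPM.

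Among 10 processing genes 7 were higher in both CCCP libraries (24% of all genes tested were), none below (24.8%), and 3 overlapped, with a median of 0.19. Neither edgeR nor DESeq2 called any of them, and 1 was higher at an unadjusted p under 0.05 in edgeR. Lman1 and Mcfd2, which form the receptor that carries factors V and VIII out of the endoplasmic reticulum, had log2 fold changes of 0.16 (standard error 0.118) and 0.27 (0.115). Ggcx, the vitamin K-dependent carboxylase that modifies prothrombin and factor X, stood at -0.01 (0.203), and Vkorc1, which recycles vitamin K, at 0.34 (0.166). P4hb, a disulfide isomerase, stood at 0.38 and Pcsk5, a proprotein convertase, at -0.13, the highest and lowest of the list.

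**Figure D4:**
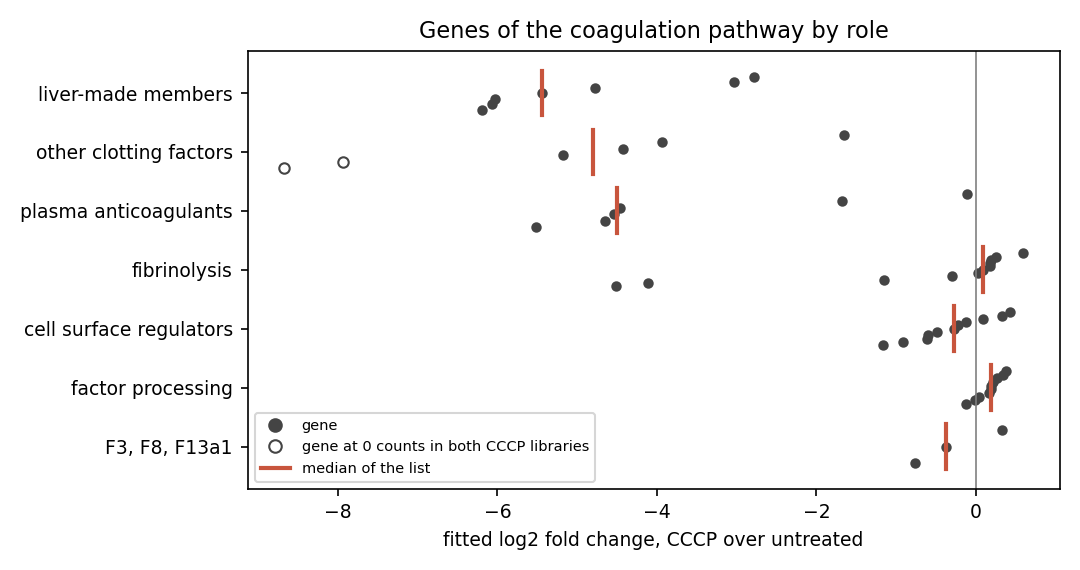
Fitted log2 fold change (CCCP over untreated) of every tested gene of each role, 1 point per gene, with the list median as a red bar; open points are genes with 0 counts in both CCCP libraries, whose fitted value is no bound. The liver-made genes, the other clotting factors and the plasma anticoagulants have medians between -5.44 and -4.50, while cell surface regulators, processing genes and fibrinolysis genes have medians between -0.28 and 0.19.

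Markers of the cells known to make these proteins were read in the same libraries. Of 15 hepatic markers 13 were lower in both CCCP libraries (24.8% of all genes tested were), 1 was above (24%) and 1 overlapped. Their summed level was 1780 and 1024 CPM in untreated and 72.4 and 129 CPM in CCCP. Alb stood at 376 and 151 CPM without treatment and at 0.165 and 11.1 CPM with CCCP, and Afp had 860 and 577 CPM against 1.69 and 44.9 CPM. Ahsg was the one marker at 0, in CCCP replicate 1. Alb and Ahsg were below the filter's level in that library, so they passed the filter only through the untreated libraries. Hnf4a, a hepatic transcription factor, was at 8.97 and 8.32 CPM in untreated and 2.45 and 1.82 CPM in CCCP. Cebpa was higher in both CCCP libraries, with a log2 fold change of 0.40 (standard error 0.210). Transcripts of genes listed as hepatic markers were thus present in explants labelled as AGM, in both groups. The cells they came from were not identified, and the part of these transcripts in the difference of the liver-made genes was not tested.

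Markers of endothelium, megakaryocytes, macrophages and perivascular cells were each detected as a group in all libraries. The counts below or above both untreated libraries stand here beside 24.8% and 24% of all genes tested. The 12 endothelial markers summed to 679 and 786 CPM in untreated and 686 and 656 CPM in CCCP, with 4 below both untreated libraries and none above. Cdh5, an endothelial cadherin, had 138 and 177 CPM against 144 and 134 CPM, Emcn stood at a log2 fold change of 0.18 and Lyve1 at -1.29. The 12 megakaryocyte and platelet markers summed to 142 and 102 CPM in untreated and 57.8 and 109 CPM in CCCP, with 4 below and none above. CCCP replicate 1 stood lowest in this sum. Pf4 stood at 20.7 and 13.8 CPM without treatment and at 8.26 and 17.7 CPM with CCCP, Clec1b stood at -0.14 and Treml1 at -1.76. The 12 macrophage markers summed to 250 and 173 CPM in untreated and 253 CPM in each CCCP library, with 3 above and none below. Csf1r stood at -0.01, C1qa at 0.71 and Mrc1 at -0.32, and Cd163, named with its values in view, was at 0 in untreated replicate 2. The 10 perivascular and fibroblast markers summed to 3997 and 2448 CPM in untreated and 3319 and 2785 CPM in CCCP. Of the 9 that passed the filter 3 were below and none above, with Pdgfrb at 0.22, Dcn at -0.60 and Acta2 at 0.50. The part of these markers in the values of F3, F8 and F13a1 was not tested.

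The genes closest in pattern to the mean of Fga, Fgb and Fgg over the 4 libraries were Afp, Apob, Kng1, Serpina6, Apoh, Ahsg, Alb and Itih3. Likeness was measured as the root mean square difference between centred log2 CPM profiles, and it was 0.227 for Afp, 0.254 for Apob and 0.866 for Itih3. No gene lay within 0.1 of the fibrinogen profile. By the same measure, 453 genes lay within 0.1 of F3, 123 of F8 and 403 of F13a1. The closest were Atp6v0b, Fech and Lin37 to F3, Uprt, Nwd2 and Pld5 to F8, and Yipf6, Lrrk2 and Gxylt1 to F13a1. With 4 libraries, these rankings describe the profiles and are not tests.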

How the data were processed

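RNA of 4 libraries (2 untreated, 2 CCCP) was measured after poly(A) selection and a directional library preparation, per the labels' protocols. The authors deposited raw read counts by gene, from featureCounts 2.0.3 over exons of the NCBI RefSeq annotation of mm10, per the file headers. No option for strand, multi-mapping reads, overlaps or counting of pairs appears in that command, so each read of a pair counts singly and genes on opposite strands that overlap are uncertain (5 of the 10 genes). HISAT2, SAMtools, FastQC and Subread are named in the submitters' processing notes. Exon lengths are also from the deposited files.

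Here the counts were filtered with filterByExpr (minimum count 10, minimum total 15), scaled by TMM and tested with edgeR 4.0.16 (quasi-likelihood, group as sole term) in R 4.3.3, with Benjamini-Hochberg adjustment over 19837 genes. DESeq2 1.42.0, other size factors, no filter, a replicate term and leaving out each library were alternatives. Standard errors are the log2 fold change divided by the square root of F. Log2 CPM used a prior count of 2. Intervals are exact Poisson or Clopper-Pearson at 95% and cover counting error only; as an alternative chosen after seeing the data, some were recomputed with counts halved, since mates were counted singly. The fits were run on simulated data with 200 changed genes, where edgeR called 189 of the 194 that passed the filter and 8 others. Every simulated gene had the same dispersion, and same-numbered libraries were not linked. The simulation thus checks that the fits run and not how they perform on the present counts.

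The genes and lists were chosen with earlier results of these data known. From each list the genes of highest and lowest log2 fold change with a mean CPM of at least 1 were named, with a few fixed markers and processing genes; 2 listed genes are not reported here by name. Genes closest in pattern were the 8 nearest to fibrinogen and the 3 nearest to F3, F8 and F13a1 each, without the 10 genes, predicted genes and pseudogenes.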

Additional observations from a re-analysis of the deposited data

How the results depend on the processing

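All 10 genes kept the direction of their log2 fold change under the 8 alternatives run. The median of the liver-made genes lay between -8.04 (without CCCP replicate 2) and -4.42 (without CCCP replicate 1) when 1 library was left out, and that of F3, F8 and F13a1 between -0.53 and -0.21. The number of genes called over the whole table, 0 in the edgeR fit as reported and with DESeq2 size factors, was 594 with DESeq2, 1107 without a filter beyond 1 count and 10 (without untreated replicate 1) to 46 (without untreated replicate 2) when 1 library was left out, where the lone library of a group is assumed to vary like the other group. With the replicate block in edgeR it was 2118. Same-numbered libraries deviated together (correlation 0.36 over genes), but the labels leave the meaning of a number unstated, and with 2 pairs the numbers were not taken to pair libraries. The causes of these differences were not tested. The median of the liver-made genes moved by more than the spread between replicates only without CCCP replicate 2. Of 80 medians of the pathway and cell type lists under alternatives, 68 moved by less than that spread and 7 moved by more. Plasma anticoagulants were among these 7, at -5.44 and -3.74. The remaining 5 changed sign, all with 1 library left out. Over those fits the ranges were -0.31 to 0.028 for cell surface regulators, -0.060 to 0.092 for fibrinolysis, -0.30 to 0.000395 for endothelial markers, -0.12 to 0.49 for macrophage markers and -0.40 to 0.15 for perivascular markers. Counts of 0 to 6 in CCCP replicate 1 limit every ratio that rests on F2, Plg or the fibrinogen chains there.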
